A study of Homo sapiens with 3 samples.

Results

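The genes described here are 8 protein-coding hosts of conserved intronic microRNAs, examined for N6-methyladenosine (m6A) in nuclear RNA of the human breast cancer cell line MDA-MB-231. They are CTDSPL, CTDSP1 and CTDSP2 (hosts of miR-26), PANK1, PANK2 and PANK3 (hosts of miR-103 and miR-107), and SREBF1 and SREBF2 (hosts of miR-33). A region of the deposited m6A list was assigned to a host when its midpoint fell within that gene's window in hg19, whose limits are given to the nearest kb. By this rule 46 of the 41836 regions in the list (0.11%) belonged to the 8 windows, which together span 394 kb.

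From the nuclear fraction, 2 libraries were captured by a rabbit anti-m6A antibody and 1 by control rabbit IgG. All 3 libraries came from this line grown in DMEM with serum, and the labels name no genotype or treatment that separates them. Nothing in the labels tells whether the m6A libraries were separate cultures. The only deposited table is a single list of regions with 0 columns of values for a single library, so depth, enrichment over IgG and the spread between m6A libraries are unknown. Every value here is a position, a width or a count of listed regions, with no replicate error and no test.

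m6A is a methyl group added to adenosine within a short consensus built around GGAC, mainly by the METTL3 and METTL14 complex while RNA is being made. An intronic microRNA is cut from its host's precursor: the Microprocessor (DROSHA and DGCR8) recognises a hairpin in the primary transcript and releases it, and METTL3-dependent m6A has been described as a mark that helps DGCR8 find primary microRNAs. The study addressed where m6A lies in nuclear RNA, which holds such precursors. In the cell the hosts and miR-33 have textbook roles. CTDSP proteins are small phosphatases that act on the C-terminal domain of RNA polymerase II and on the retinoblastoma protein, PANK enzymes start coenzyme A synthesis from pantothenate, and SREBF1 and SREBF2 encode the membrane-bound transcription factors that drive fatty acid and cholesterol synthesis, while miR-33 represses the cholesterol exporter ABCA1.

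The mature microRNAs define the 3 families, and are shown because their seeds (bases 2 to 8, in capitals), which pair with targets, are what the hosts of a family share. Sequences are from RefSeq on GRCh38.p14, where all 8 hairpins were found.
hsa-miR-26a-5p (hosts CTDSPL and CTDSP2): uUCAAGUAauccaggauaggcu
hsa-miR-26b-5p (host CTDSP1): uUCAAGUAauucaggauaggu
hsa-miR-103a-3p (hosts PANK2 and PANK3): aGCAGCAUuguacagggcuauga
hsa-miR-107 (host PANK1): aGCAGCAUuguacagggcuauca
hsa-miR-33a-5p (host SREBF2): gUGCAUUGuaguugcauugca
hsa-miR-33b-5p (host SREBF1): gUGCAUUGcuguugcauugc
With bases counted from 1 at the 5′ end, miR-26b differs from miR-26a by C11U and C21U, miR-107 from miR-103a by G22C alone, and miR-33b from miR-33a by U9C and A10U. All of these lie outside the seed. At the 3′ end miR-26b has 21 bases to the 22 of miR-26a, and miR-33b 20 to the 21 of miR-33a.

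The letters GGAC, searched on the RNA strand only, occurred in 2 of the 8 hairpins, against 27.3% of the 1562 human hairpins in the same RefSeq table. The share among the hosts was thus close to that of all hairpins. Both were miR-26 hairpins, while the other miR-26 hairpin, MIR26A2, held none. They are printed with GGAC in capitals because they are the host hairpins that hold these letters.
MIR26A1 (host CTDSPL): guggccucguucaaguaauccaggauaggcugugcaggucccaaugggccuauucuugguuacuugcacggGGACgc
MIR26B (host CTDSP1): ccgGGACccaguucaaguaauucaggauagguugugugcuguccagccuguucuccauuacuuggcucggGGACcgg
GGAC lay at base 72 of the 77 in MIR26A1, and at bases 4 and 71 of the 77 in MIR26B, near the open ends of the hairpins and outside the mature arms. These are letters in a reference sequence and not measured sites, and the bases around GGAC were not compared with the wider consensus. The hairpins have GRCh38 positions and the m6A regions hg19 positions, so no distance between a hairpin and a region was measured.

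Of the 8 hosts, 7 held m6A regions, and 45 of the 46 regions (97.8%, 95% Wilson interval 88.7 to 99.6%, counting error only) lay on the strand of the host gene. The interval treats regions as independent, although the 45 formed only 11 chains of neighbours at most 10 kb apart. How often other genes hold regions, and on which strand, was not measured, so neither value has a background. The miR-33 hosts held 24 host-strand regions in 102 kb (2.35 per 10 kb), the PANK hosts 12 in 132 kb (0.909 per 10 kb) and the CTDSP hosts 9 in 160 kb (0.562 per 10 kb). In each family the counts were unequal, from 15 regions in SREBF1 to 9 in SREBF2, from 8 in PANK3 to 0 in PANK1, and from 5 in CTDSPL to 1 in CTDSP1. Windows differ in length, and per 10 kb the CTDSP order was reversed, with CTDSP1 at 1.11, CTDSP2 at 1.07 and CTDSPL at 0.407. The single region against the host strand was in the SREBF1 window. In this list 57.4% of all regions are on the minus strand, and the 4 minus-strand hosts held 26 regions in 152 kb (1.71 per 10 kb) against 19 in 242 kb (0.785 per 10 kb) for the 4 plus-strand hosts. The minus-strand regions were uneven, with 15 in SREBF1, 8 in PANK3, 3 in CTDSP2 and 0 in PANK1, so the pooled density leans on SREBF1. Densities are per kb of gene, introns included, and the RNA abundance of the hosts was not measured. The part of strand, exon content or RNA abundance in the difference between hosts was not tested.

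**Figure D1:**
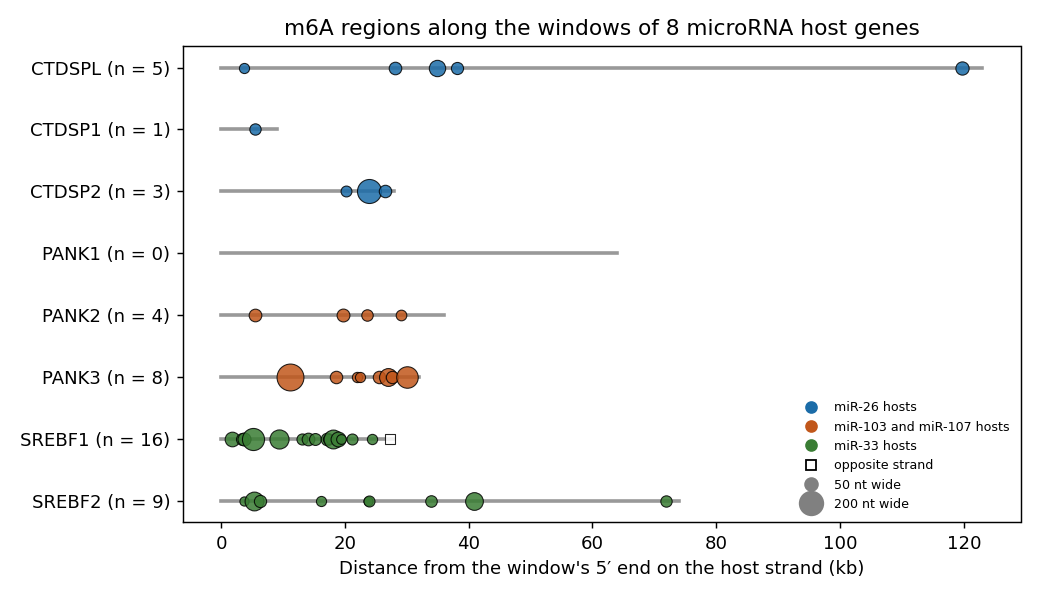
Each grey line is a host gene window, drawn from its 5′ end on the host strand (distance in kb), and each circle is 1 m6A region with its area growing with width; the open square is the 1 region on the opposite strand. SREBF1 is filled along most of its length, PANK3 and CTDSP2 mainly toward the 3′ end, and PANK1 is empty.

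SREBF1, the gene for the regulator of fatty acid synthesis that also hosts miR-33b, was the densest of the hosts. Its window on the minus strand of chromosome 17 (17713000 to 17741000) held 15 host-strand regions, or 5.36 per 10 kb (95% exact Poisson interval 3.0 to 8.84, which treats regions as independent although neighbours are not). As background, the list was divided into stretches of the same 28 kb on either strand. Of those with at least 1 region 0.83% held as many or more, and of all stretches 0.0636%. Stretches were laid without regard to genes, so these shares describe the list only.

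The SREBF1 regions formed a single run. All 15 belonged to 1 chain of neighbours at most 10 kb apart, from 17716615 to 17739218 (22.6 kb), and the chain held no region outside the window. The first region from the 5′ end lay 1.82 kb into the window (17739149 to 17739218, 70 nt) and the last 24.37 kb into it (17716615 to 17716642, 28 nt). Widths ran from 24 to 175 nt with a median of 49 nt. The widest region (17735672 to 17735846, 175 nt) lay 5.24 kb from the 5′ end, and regions of 128 nt (17731592 to 17731719) and 124 nt (17722876 to 17722999) followed at 9.35 and 18.06 kb.

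Within SREBF1, 6 of the 15 regions lay before the window's midpoint and 9 after it. Gaps had a median of 1.24 kb and a range of 0.111 to 3.95 kb, and 6 of the 14 were at most 1 kb. The closest pair, 17723674 to 17723701 and 17723813 to 17723861, was separated by 111 nt. These belonged to a cluster of 5 regions between 17721642 and 17723861. The opposite-strand region (17713746 to 17713773, 28 nt) lay at the 3′ edge of the window, 27.24 kb along. GENCODE release 29 lists the plus-strand gene RAI1 as overlapping SREBF1 in GRCh38, and 5 more plus-strand regions lay in the 28 kb downstream of the window. The gene of origin of that region cannot be told from the list.

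SREBF2, the gene for the regulator of cholesterol synthesis and host of miR-33a, held fewer regions over a longer window. On the plus strand of chromosome 22 (42229000 to 42303000) there were 9 regions, 1.22 per 10 kb (exact Poisson interval 0.556 to 2.31). Its interval did not overlap that of SREBF1. Of stretches of 74 kb with at least 1 region, 9.14% held 9 or more, and of all such stretches 1.34%. The comparison with SREBF1 has no replicate error and its intervals treat neighbouring regions as independent, so it is no test. The abundance of the 2 RNAs was not measured.

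The SREBF2 regions lay mostly toward the 5′ end. Of the 9, 7 were before the midpoint of the window, and 3 lay within the first 6.33 kb: 42232691 to 42232710 (20 nt), 42234228 to 42234350 (123 nt, the widest) and 42235306 to 42235350 (45 nt). The other wide region was at 42269837 to 42269944 (108 nt), 40.89 kb along. The closest pair, 42252706 to 42252724 (19 nt, the smallest width in the whole list) and 42252938 to 42252971 (34 nt), was 213 nt apart. After the region at 40.89 kb came an empty stretch of 31.0 kb, and the last region (42300921 to 42300957, 37 nt) lay alone at 97.2% of the window. In GRCh38 the MIR33A hairpin lies 91.5% along the gene, in intron 17 of a transcript with 20 exons. MIR33B lies in intron 17 of a 20-exon transcript of SREBF1. For each gene the transcript used was the coding one with the most exons among those with the hairpin in an intron. Intron numbers hold for that transcript only. Whether any listed region falls in those introns was not determined.

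PANK3, which makes a cytosolic pantothenate kinase and hosts miR-103a-1, came next to SREBF1 in density. Its window on the minus strand of chromosome 5 (167975000 to 168007000) held 8 regions, 2.5 per 10 kb (exact Poisson interval 1.08 to 4.93), and 5.9% of 32 kb stretches with at least 1 region (0.495% of all) held as many or more. All 8 formed 1 chain of 19.1 kb. The first, at 11.15 kb from the 5′ end (167995722 to 167995986), was 265 nt wide, the widest of all members, and only 0.731% of the list was as wide or wider. The other 7 lay beyond the midpoint of the window.

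The 3′ part of PANK3 held both its other wide regions. The last region (167976847 to 167977011, 165 nt) lay at 94.0% of the window, and a region of 110 nt (167980006 to 167980115) at 84.2%. The closest pair, 167984462 to 167984488 (27 nt) and 167985039 to 167985066 (28 nt), was 0.55 kb apart. Gaps ran from 0.55 to 7.2 kb with a median of 2.28 kb. No host-strand region lay in the 32 kb on either side of the window.

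PANK2, whose product is a mitochondrial pantothenate kinase and whose intron holds miR-103a-2, had 4 regions on the plus strand of chromosome 20 (window 3869000 to 3905000, 1.11 per 10 kb, exact Poisson interval 0.303 to 2.84). Their positions were 3874484 to 3874532 (49 nt), 3888608 to 3888658 (51 nt), 3892621 to 3892658 (38 nt) and 3898037 to 3898067 (31 nt). None was wide, and the last 3 lay between 54.5 and 80.7% of the window. Among 36 kb stretches with at least 1 region, 22.7% held 4 or more, and among all, 2.06%. Another region on the same strand (3906858 to 3906941, 84 nt) began 1.86 kb beyond the window and was in the same chain as the last 3. GENCODE gives PANK2 41.0 kb in GRCh38, longer than the 36 kb window, so a region of PANK2 itself could lie outside the window.

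PANK1, host of miR-107, had no listed region on either strand of its 64 kb window (chromosome 10, 91342000 to 91406000). The nearest minus-strand regions were 355.0 kb away on the low side (90986716 to 90986734, 19 nt) and 1190 kb away on the high side (92599938 to 92599980, 43 nt), an empty stretch of 1610 kb that 2.15% of same-strand gaps in the list equal or exceed. On the plus strand the nearest regions were 242.0 and 86.7 kb from the window. Of all 64 kb stretches of the list's span, 13.3% held at least 1 region. Stretches were laid on each strand apart and without regard to genes, so this share does not tell how often a gene of this length is empty. Whether PANK1 RNA was present in these nuclei was not measured, and an absent transcript and an unmethylated one cannot be told apart.

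The 3 PANK genes, whose microRNAs share the seed GCAGCAU, ranged from 0 to 8 listed regions. The mature miR-103a can come from PANK2 and PANK3, and both of those hosts had regions. miR-107 comes from PANK1, which had none, and whose RNA was not measured. Whether listed regions in a host bear on its microRNA was not tested.

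CTDSPL, the longest window (123 kb on the plus strand of chromosome 3, 37903000 to 38026000) and host of miR-26a-1, held 5 regions, 0.407 per 10 kb (exact Poisson interval 0.132 to 0.949). They were 37906771 to 37906797 (27 nt), 37931003 to 37931050 (48 nt), 37937797 to 37937886 (90 nt), 37941062 to 37941105 (44 nt) and 38022678 to 38022732 (55 nt). Of these, 4 fell in the first 31.0% of the window and 1 at 97.3%, with an empty stretch of 81.6 kb between. A gap of that length or more made up 18.2% of same-strand gaps in the list. Of 123 kb stretches with at least 1 region 27.5% held 5 or more, and of all 5.66%.

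CTDSP2, host of miR-26a-2, held 3 regions in 28 kb on the minus strand of chromosome 12 (58213000 to 58241000), 1.07 per 10 kb (exact Poisson interval 0.221 to 3.13). They lay at 71.9, 85.1 and 94.4% of the window: 58220849 to 58220881 (33 nt), 58217067 to 58217275 (209 nt) and 58214552 to 58214598 (47 nt). The region of 209 nt was the only wide one among the CTDSP genes, and 1.58% of the list was at least as wide. Of 28 kb stretches with at least 1 region, 30.8% held 3 or more, and of all 2.36%.

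CTDSP1, the shortest window (9 kb on the plus strand of chromosome 2, 219262000 to 219271000) and host of miR-26b, had 1 region, 219267515 to 219267551, 37 nt wide and 5.53 kb from the 5′ end, at 61.5% of the window. That is 1.11 regions per 10 kb, with an exact Poisson interval of 0.0281 to 6.19. The nearest same-strand regions outside were 42.8 and 164.0 kb away. Every 9 kb stretch with a region holds at least 1 (100% by construction), and 3.5% of all 9 kb stretches did.

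In order of regions per 10 kb the hosts ran SREBF1, PANK3, SREBF2, PANK2 and CTDSP1 together, CTDSP2, CTDSPL and PANK1. The Poisson interval of each host with a region overlapped that of the next in this order. The interval of SREBF1 lay above those of SREBF2, PANK2 and CTDSPL, and that of PANK3 above that of CTDSPL. These intervals treat neighbouring regions as independent and hold no replicate error, so neither overlap nor separation is a test. PANK3 came between the SREBF genes in this order and PANK1 came last, while CTDSP1, CTDSP2 and CTDSPL followed one another.

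**Figure D2:**
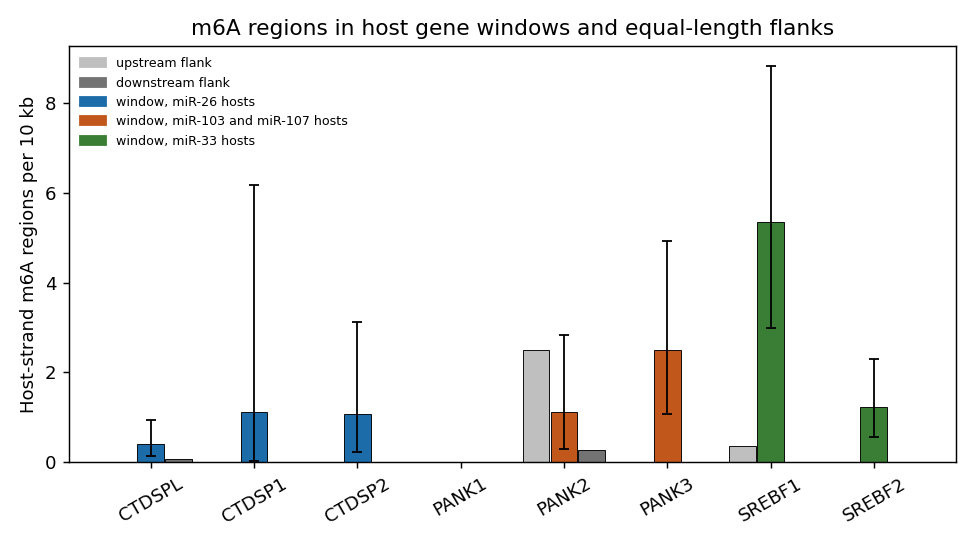
Bars give host-strand m6A regions per 10 kb in each window and in a flank of the window's length upstream and downstream; error bars on the windows are 95% exact Poisson intervals, with none for PANK1 at 0. SREBF1 stands at 5.36 and PANK3 at 2.5, and PANK2 is the host whose upstream flank (2.5) exceeds its window (1.11).

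Flanks of most windows held few regions. Over all hosts the windows held 1.14 host-strand regions per 10 kb and the flanks of equal length 0.152, with 10 regions upstream and 2 downstream. The windows of CTDSP1, CTDSP2, PANK1, PANK3 and SREBF2 had no host-strand region in either flank. Of the 12 flank regions 9 lay upstream of PANK2, between 3848001 and 3855670, at least 13.3 kb before its window. The gene next to PANK2 on that side is MAVS, also on the plus strand, in GENCODE's GRCh38 order. Windows are gene-sized and flanks are partly intergenic, so this contrast is one of genes against their surroundings.

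Wide regions were described against the list. Of the 46 regions 9 exceeded 100 nt (19.6%, 95% Wilson interval 10.7 to 33.2%, counting error only), against 10.3% of the whole list. They were in PANK3 (3), SREBF1 (3), SREBF2 (2) and CTDSP2 (1), and CTDSPL, CTDSP1 and PANK2 had none. On the host strand the median width was 46 nt, beside 45 nt in the list, and the upper quartile 70 nt, beside 54 nt. Without SREBF1 the upper quartile was 54 nt, as in the list, and the median 45.5 nt. Of the 30 regions then left, 6 exceeded 100 nt. In the list this share moves with the size of the chain, from 4.39% for regions alone to 14.2% in chains of 10 to 19 regions, and its part in the members' share was not tested.

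**Figure D3:**
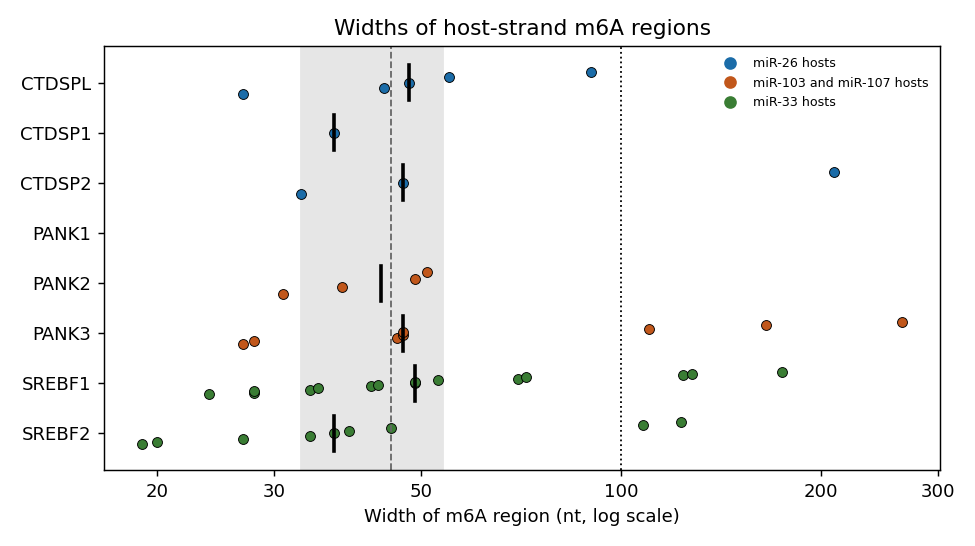
Each point is the width of 1 host-strand m6A region (nt, log axis), black bars are host medians, the grey band and dashed line are the quartiles (33 to 54 nt) and median (45 nt) of the whole list, and the dotted line marks 100 nt. Host medians lie between 37 and 49 nt, and the 9 regions beyond 100 nt come from PANK3, SREBF1, SREBF2 and CTDSP2.

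Spacing inside the windows was set beside that of the list. Of 38 gaps between neighbours inside windows, 34 (89.5%) were at most 10 kb, against 61.7% of all same-strand gaps, and 10 (26.3%) were at most 1 kb, against 24.6%. The median gap was 2.72 kb, beside 4.69 kb in the list. Gaps inside a window cannot exceed its length, whereas those of the list also span the distance between genes. The 10 gaps of at most 1 kb came from SREBF1 (6), PANK3 (2) and SREBF2 (2).

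**Figure D4:**
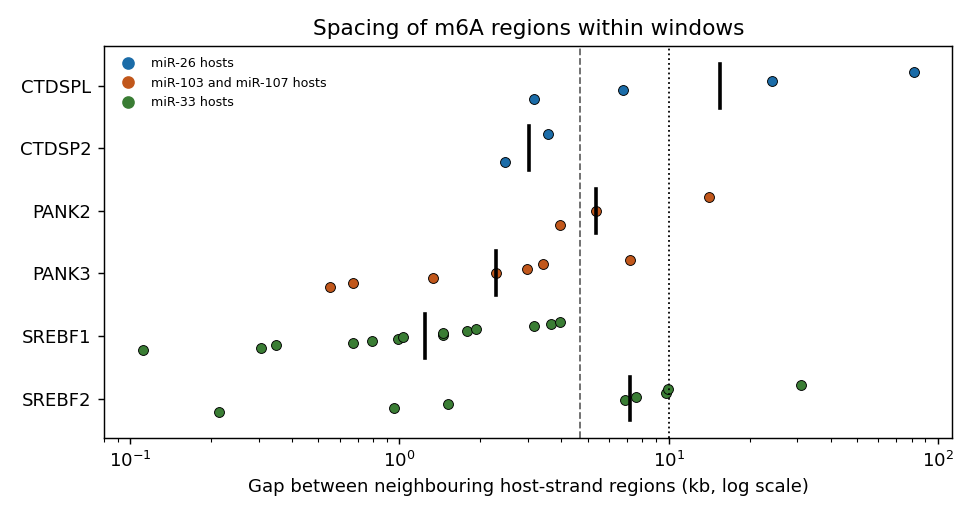
Each point is the gap in kb (log axis) between 2 neighbouring host-strand m6A regions of a window, and black bars are medians; the dashed line is the median gap of the whole list (4.69 kb) and the dotted line 10 kb. SREBF1 gaps stay at or below 3.95 kb, while CTDSPL reaches 81.6 kb.

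Along the windows, 19 host-strand regions fell before the midpoint and 26 after it. The split differed in direction between hosts. Regions of PANK3 (7 of 8), CTDSP2 (3 of 3) and PANK2 (3 of 4) were mostly in the 3′ part, and those of SREBF2 (7 of 9) and CTDSPL (4 of 5) mostly in the 5′ part. Each count is small, neighbouring regions are not independent, and no background for position was measured. For reference, GENCODE places each hairpin within an intron on the host's strand, at 87.7% of the gene for MIR26A1, 57.6% for MIR26B, 82.4% for MIR26A2, 79.9% for MIR107, 69.9% for MIR103A2, 60.0% for MIR103A1, 86.9% for MIR33B and 91.5% for MIR33A. These are positions in GRCh38 gene models. They were not matched to the hg19 windows, and exons, introns and stop codons could not be assigned to the regions.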

How the data were processed

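The list of regions was used as the authors deposited it: start and end positions, with a score of 1 for every region, which therefore ranks nothing. The aligner was Bowtie2 and the build hg19, per the submitters' processing notes. Its version, the peak calling and the role of IgG are, in the sources used here, not given. Positions are counted from 1, and width is end minus deposited start. The members, windows and measures were chosen with earlier results of these data known. Each host is described, and single regions are named where a window holds 5 or fewer; otherwise the widest, first, last and closest pair are named, and a few others were added after their values were seen. Regions on one strand at most 10 kb apart form a chain. Stretches run from the first to the last region of each chromosome and strand. Flanks equal the window in length. Hairpin positions and gene neighbours come from GENCODE release 29 (GRCh38) and were not compared with hg19 coordinates. Lists of sterol, coenzyme A and retinoblastoma pathway genes, hairpin distances and motifs in regions, all planned, were not run without hg19 annotation or sequence. Counting functions were tested on simulated data. Software was scipy 1.17.1, pandas 2.3.3, numpy 2.4.6 and matplotlib 3.10.9 under Python 3.11.15.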

Additional observations from a re-analysis of the deposited data

How the results depend on the processing

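The count of 46 regions and the median width of 46 nt on the host strand were the same with any overlap of 1 nt, with windows widened by 1 kb at each end and with overlapping regions merged. With windows narrowed by 1 kb the opposite-strand region at the edge of SREBF1 dropped out, and the share on the host strand was 100%. Restriction to regions wider than the list's median left 23 regions with a median of 70 nt, all on the host strand (100%), which follows from removing narrow regions. CTDSP1 then had 0 regions. A joining distance of 1 kb split the 11 chains of the host-strand regions into 35, and 50 kb gave 8. Flanks of 20 kb held 0.219 regions per 10 kb in place of 0.152. Further settings were chosen after seeing the data. Leaving out SREBF1 left 30 regions, all on the host strand (100%). With windows widened by 10 kb the host-strand share was 93.9%, and PANK2 rose from 4 to 7 regions, 2 of them on the opposite strand. GENCODE lists the minus-strand gene RNF24 as overlapping PANK2 in GRCh38, and the gene of origin of those 2 regions cannot be told. No paired analysis was possible because the list has no value for a single library, and for the same reason no library could be left out and no stricter score applied. Read depth and enrichment over IgG behind each region are unknown.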
